A study of Homo sapiens with 16 samples.

Results

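The 10 genes described here were the 4 ID genes (ID1, ID2, ID3 and ID4), the inhibitory SMADs SMAD6 and SMAD7, the decoy receptor gene BAMBI, and the BMP SMADs SMAD1, SMAD5 and SMAD9. They were 10 of the 35810 genes joined from the deposited transcript tables, and all 10 were among the 16705 genes tested. The set was chosen by the strong and lasting fall of ID1 under latrunculin B, so the drug comparisons of ID1 are given as a description with no test. The other 9 genes were added as known parts of the same pathway, with earlier results of these data known, so counts over the set describe it and support nothing further.

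Pancreatic progenitors had been differentiated to day 19 from SA121 human embryonic stem cells that carry an NGN3-GFP reporter, and RNA with poly(A) tails was sequenced from 16 libraries. To follow the time between actin loss and endocrine specification, cells were given 0.5 µM latrunculin B (LatB), which sequesters actin monomers, and harvested at 3 h (n = 3), 6 h (n = 3), 12 h (n = 2) or 24 h (n = 3). The controls were harvested at 0 h (n = 3) or after 24 h in the vehicle DMSO (n = 2). The 0 h control carries a DMSO tag, although the design text describes it as harvested before any treatment began, and its exposure to vehicle is therefore uncertain. All groups carried the reporter and came from the same line, and the labels do not say that replicates were separate cultures, so the p-values below measure only the spread between these samples. LatB at 3, 6 and 12 h was compared with the 0 h control, which these comparisons share, and LatB at 24 h with the 24 h control. Drug and time in culture are therefore mixed at 3, 6 and 12 h.

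Bone morphogenetic proteins (BMPs) bind paired receptor kinases that phosphorylate SMAD1, SMAD5 and SMAD9, and these enter the nucleus with SMAD4 and raise the transcription of their targets. The ID genes are the best known targets. They encode helix-loop-helix proteins without a DNA-binding region, which hold E proteins (TCF3, TCF4, TCF12) away from tissue-specific partners such as NEUROG3, the factor that starts endocrine differentiation. SMAD6, SMAD7 and BAMBI are also BMP-induced and act as negative feedback, the first 2 inside the cell and BAMBI at the membrane.

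The libraries held 23609727 to 33515398 estimated reads. All 9 pancreatic progenitor markers, among them PDX1, NKX6-1 and SOX9, had a mean of at least 1 TPM in every group, with summed levels of 1383.0 to 2514.1 TPM. Hepatic markers were also high in every library (summed 1841.0 to 4383.9 TPM), led by FGB, APOA1 and TTR, whereas of 6 endothelial markers (summed 28.8 to 44.6 TPM) PECAM1, CDH5, TEK and VWF were below 1 TPM in every group, KDR was at 1.11 to 7.06 TPM and EGFL7 at 26.2 to 36.5 TPM. Gut markers summed to 139.9 to 177.7 TPM in the controls and 61.6 to 130.8 TPM under LatB, with CDX2 at 57.5 TPM at 0 h and 26.7 TPM at 24 h of LatB. Endocrine markers summed to 58.6 to 73.0 TPM in the 0 h control, 99.6 to 117.8 TPM in the 24 h control and 134.0 to 493.8 TPM under LatB. SST, somatostatin, made up most of the sum at 3 h of LatB, at 142.2 TPM against 44.1 TPM at 0 h. Over that time INS (0.787 to 0.712 TPM) and GCG (0.172 to 0.0856 TPM) were lower. The other markers of the list were higher, NEUROG3 by little (0.701 to 0.877 TPM). A pair of libraries stood apart. In LatB 12 h replicate 2 the mesenchymal markers summed to 435.5 TPM, against 61.0 to 132.2 TPM in all other libraries, and the hepatic markers to 4383.9 TPM, and without it ID2, ID3, ID4, SMAD6 and SMAD7 were still called at 12 h, as 5 of the 9 members other than ID1. In LatB 24 h replicate 1 the endocrine markers summed to 136.9 TPM, against 433.4 and 493.8 TPM in the other 24 h LatB libraries, and no call of a member at 24 h changed without it. Counts of the other lists and calls of genes named below that changed without either library are given beside them. With 12 h replicate 2 left out, the lone 12 h library is assumed to vary like the other groups. Of the pluripotency list, LIN28A averaged 176.4 and 182.2 TPM in the 0 h and 24 h controls and 93.2 to 114.7 TPM in the LatB groups, while the group means of POU5F1 and NANOG were at most 1.71 TPM. The summed neural markers, nearly all TUBB3, were 209.8 to 232.9 TPM in controls and 219.0 to 459.5 TPM under LatB. The part of these markers in the changes below was not tested, and in bulk samples fewer cells of a type and less RNA per cell cannot be told apart.

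Sequence before the start sites was read for the 10 genes, all of which matched the RefSeq promoter table (GRCh38.p14). For all 27305 promoters of that table the 250 bases before the start equalled hg38. The first listed start was used where a gene had several (SMAD1 has 5 and SMAD7 has 3). The following windows are shown because they hold, or lack, letters that BMP SMADs are known to bind, in genes that fell deeply (ID1, ID3), fell less (ID4, SMAD6) or were not called at 3 h (BAMBI). Capitals mark GGCGCC, the GC-rich element bound by SMAD1 and SMAD5, and CAGAC, the SMAD box, searched on both strands (CAGAC reads GTCTG on the other strand). The 2 kinds of match did not overlap in these windows.
ID1 promoter, chr20:31605039-31605288, plus strand: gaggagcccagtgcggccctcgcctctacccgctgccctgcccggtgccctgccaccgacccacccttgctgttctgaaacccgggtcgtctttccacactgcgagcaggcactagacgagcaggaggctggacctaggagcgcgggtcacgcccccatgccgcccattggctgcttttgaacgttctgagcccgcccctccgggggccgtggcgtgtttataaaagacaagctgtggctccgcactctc
ID1 upstream, chr20:31604289-31604438, plus strand, 1000 to 851 bases before the start: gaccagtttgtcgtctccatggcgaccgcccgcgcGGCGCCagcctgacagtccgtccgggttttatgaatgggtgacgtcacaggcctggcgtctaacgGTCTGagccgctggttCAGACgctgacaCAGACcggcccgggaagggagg
ID3 promoter, chr1:23559502-23559751, minus strand: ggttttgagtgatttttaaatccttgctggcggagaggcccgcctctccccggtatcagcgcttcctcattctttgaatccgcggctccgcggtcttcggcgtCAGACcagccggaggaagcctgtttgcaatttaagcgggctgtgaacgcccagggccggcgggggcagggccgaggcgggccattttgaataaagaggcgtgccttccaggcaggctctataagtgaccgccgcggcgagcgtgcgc
ID4 promoter, chr6:19837120-19837369, plus strand: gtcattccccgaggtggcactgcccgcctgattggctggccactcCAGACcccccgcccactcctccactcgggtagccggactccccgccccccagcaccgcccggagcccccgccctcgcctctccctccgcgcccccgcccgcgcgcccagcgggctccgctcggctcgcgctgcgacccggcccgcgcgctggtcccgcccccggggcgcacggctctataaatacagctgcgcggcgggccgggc
BAMBI promoter, chr10:28677271-28677520, plus strand: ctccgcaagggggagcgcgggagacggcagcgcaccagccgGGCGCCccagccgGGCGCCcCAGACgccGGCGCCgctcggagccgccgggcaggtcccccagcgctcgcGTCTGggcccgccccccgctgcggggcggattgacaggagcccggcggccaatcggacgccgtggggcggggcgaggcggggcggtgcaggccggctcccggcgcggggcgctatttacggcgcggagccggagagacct
SMAD6 upstream, chr15:66700954-66701189, plus strand, 1282 to 1047 bases before the start: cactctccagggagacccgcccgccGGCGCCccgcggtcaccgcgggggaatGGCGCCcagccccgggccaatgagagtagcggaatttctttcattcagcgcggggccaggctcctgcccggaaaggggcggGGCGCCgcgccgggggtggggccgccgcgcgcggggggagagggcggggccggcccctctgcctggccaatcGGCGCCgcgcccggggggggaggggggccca

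By the GENCODE annotation, 94 bases of the ID1 promoter window and 80 of the ID1 window further upstream lie in exons, most of them in a long non-coding RNA gene on the minus strand, 11 bases of the BAMBI window lie in an exon of BAMBI-202, and the other windows overlap no exon. The 250-base promoter of ID1 held neither set of letters, and the ID1 window further upstream held 1 GGCGCC, 965 bases before the start, followed by 3 CAGAC matches. Within 2000 bases before the start, GGCGCC was found once in ID1, ID2 and ID4, 3 times in SMAD7, 4 times in SMAD6 and 5 times in BAMBI. It was not found there in ID3, SMAD1, SMAD5 and SMAD9, which says only that these letters are not in that window. Of all 27305 promoters, 37.2% held at least 1 GGCGCC in 2000 bases, 5.98% held at least 3, 2.49% at least 4 and 1.07% at least 5. CAGAC was found in all 10 genes and in 96.8% of all promoters. The most matches of both kinds were before BAMBI, where CAGAC was found 10 times. GGAATG, the element of TEAD factors, was found 7 times before ID4, a number reached by 0.0659% of promoters, 3 times before SMAD5 (11.2%), a single time before ID1, ID2, ID3, SMAD1, SMAD6, SMAD7 and BAMBI, and not before SMAD9. At least 1 was held by 66.4% of promoters. A match is a string of letters and not a measured binding site.

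All 4 ID genes were lower under LatB than in controls at each of the 4 times, and for each of them no LatB library reached the lowest control library. The depth of the fall differed: ID1 and ID3 lost most of their RNA, and ID2 and ID4 kept a larger share. With edgeR, 31.6% of all genes tested were called at 3 h, and of the members 8 of 10 were called (7 lower, 1 higher). At 6 h 43.3% of all genes were called, and 7 of 10 members (6 lower, 1 higher). At 12 h the shares were 35.8% of all genes and 6 of 10 members, all 6 lower, and at 24 h 40.8% of all genes and 7 of 10 members, all 7 lower. ID1, whose fall chose the set, is among each of these counts, and without it they were 7, 6, 5 and 6 of 9. The median log2 fold change of the 10 members was -1.21, -0.84, -1.02 and -0.91 at 3, 6, 12 and 24 h, against medians of all genes between -0.01 and 0.01. Nothing was read from these shares, since the set was chosen on this contrast.

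ID1 (chr20:31605283-31606515, plus strand) was at 120.7, 110.2 and 87.1 CPM in the 0 h control libraries and at 90.4 and 96.2 CPM in the 24 h control libraries. CPM, the unit of these values, is the gene's read count after each library was scaled to the same TMM-adjusted total. Under LatB it was at 5.08, 6.5 and 4.6 CPM at 3 h, 3.96, 3.25 and 3.32 CPM at 6 h, 3.59 and 4.4 CPM at 12 h, and 5.05, 2.73 and 4.09 CPM at 24 h. Every LatB library was thus far below every control, and the LatB groups overlapped in range with each other except that 3 h lay above 6 h and 12 h. The means of 5.39, 3.51 and 3.99 CPM at 3, 6 and 12 h were 5.09%, 3.31% and 3.77% of the 0 h mean of 106.0 ± 17.2 CPM (SD, n = 3), and the 24 h mean of 3.96 CPM was 4.24% of the 24 h control mean of 93.3 ± 4.1 CPM (n = 2). In log2 fold change these were -4.30 (SE 0.19), -4.91 (SE 0.20), -4.72 (SE 0.23) and -4.57 (SE 0.20). Among all genes tested the fall of ID1 ranked 40 at 3 h, 38 at 6 h, 60 at 12 h and 31 at 24 h. The LatB values rest on 80 to 180 reads per library, and the control values on 2054 to 3289.

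ID3 (chr1:23557926-23559501, minus strand) came nearest to ID1. It was at 221.4, 205.3 and 160.2 CPM at 0 h and at 154.6 and 167.9 CPM in the 24 h control. Under LatB it was at 15.4, 11.6 and 11.5 CPM at 3 h, 13.2, 12.2 and 12.2 CPM at 6 h, 22.9 and 33.4 CPM at 12 h, and 21.8, 22.7 and 23.8 CPM at 24 h. The 12 h and 24 h libraries all lay above the 3 h and 6 h libraries, and the higher of the 12 h values came from the library that stood apart. The fall was 15.2-fold at 3 h (log2 fold change -3.93, adjusted p = 1.35e-08), 15.6-fold at 6 h (-3.96, adjusted p = 4.59e-09), 6.92-fold at 12 h (-2.79, adjusted p = 2.37e-07) and 7.08-fold at 24 h (-2.82, adjusted p = 1.45e-07). Without that 12 h library the 12 h log2 fold change was -3.10.

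ID4 (chr6:19837370-19842197, plus strand) was at 104.1, 95.8 and 95.6 CPM at 0 h and, lower, at 73.6 and 77.5 CPM in the 24 h control. Its LatB libraries ranged from 23.4 to 39.6 CPM over the 4 times, with no gap between neighbouring groups. The log2 fold changes were -1.54, -1.51, -1.62 and -1.41 at 3, 6, 12 and 24 h (adjusted p from 4.8e-06 to 7.52e-07), or 2.92-fold, 2.84-fold, 3.08-fold and 2.66-fold lower.

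ID2 (chr2:8678845-8684461, plus strand), the ID gene least affected, was at 143.5, 134.0 and 120.4 CPM at 0 h and at 121.9 and 120.2 CPM in the 24 h control. Under LatB it was at 57.1, 61.7 and 75.7 CPM at 3 h, 68.1, 73.6 and 91.3 CPM at 6 h, 65.7 and 51.3 CPM at 12 h, and 57.4, 69.8 and 63.6 CPM at 24 h. The controls did not overlap with LatB, and all neighbouring LatB groups overlapped. The log2 fold changes were -1.03 (adjusted p = 5.63e-05), -0.77 (adjusted p = 0.000345), -1.18 (adjusted p = 6.16e-05) and -0.93 (adjusted p = 0.000231) at 3, 6, 12 and 24 h. An antisense gene, ID2-AS1, overlaps the 5′ part of ID2, and since strand use in the counting is not given in the sources used here, reads of the pair may not be separable.

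**Figure D1:**
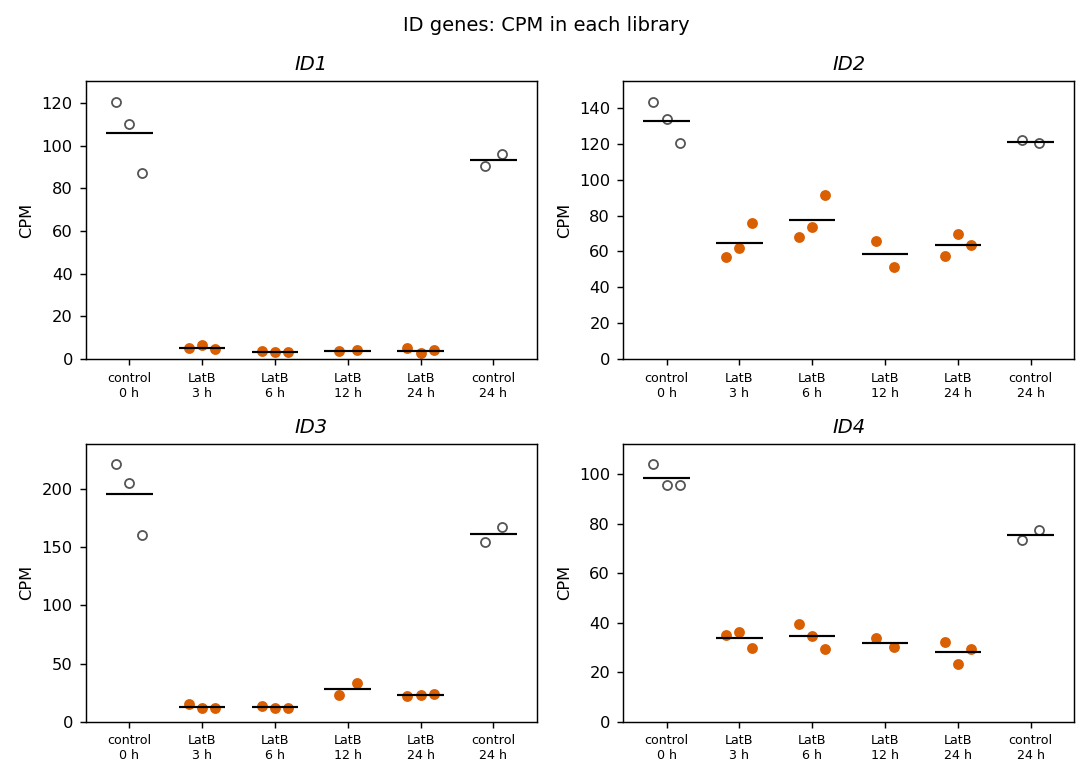
CPM of ID1, ID2, ID3 and ID4 (linear axes from 0) in each of the 16 libraries, by group; open grey points are controls, filled orange points LatB, and black bars group means. For ID1 the LatB libraries lie between 2.73 and 6.5 CPM and the controls between 87.1 and 120.7 CPM, whereas for ID2 the LatB libraries lie between 51.3 and 91.3 CPM.

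Most of the RNA of each ID gene came from 1 coding transcript, and the loss was seen in it. In TPM, transcript levels corrected for length, ID1-202 went from 150.9 TPM at 0 h to 7.64 TPM at 3 h and the minor ID1-201 from 11.1 to 0.153 TPM. ID3-201 went from 334.7 to 20.5 TPM and ID2-203 from 190.8 to 88.7 TPM over the same time. ID4 has 1 transcript in the tables.

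Because TPM is corrected for length, the 4 genes can be summed on it. The ID genes together made up 763.2 ± 103.8 TPM (SD, n = 3) at 0 h and 666.1 ± 16.1 TPM (n = 2) in the 24 h control. Under LatB the sum was 145.2 ± 10.2, 158.5 ± 14.6, 165.6 ± 10.7 and 160.5 ± 5.58 TPM at 3, 6, 12 and 24 h. The highest LatB library (174.8 TPM) lay far below the lowest control (653.1 TPM), and the sums at the 4 times differed by less than the gap to either control. The make-up changed with it. ID3 held 45.8% of the sum at 0 h, ID2 27.8%, ID1 21.2% and ID4 5.22%, whereas at 6 h ID2 held 75.3%, ID3 13.1%, ID4 8.44% and ID1 3.16%. At 24 h ID3 held 24.9% and ID2 63.8%, against 43.4% and 30.0% in the 24 h control.

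**Figure D2:**
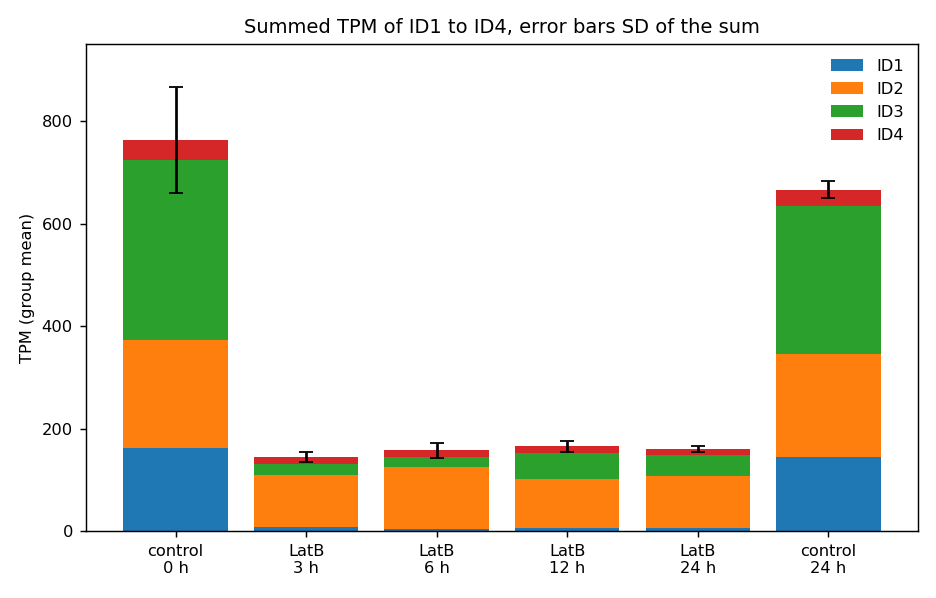
Group mean TPM of ID1 to ID4 stacked (linear axis from 0), with the SD of the sum as error bars over 3 or 2 libraries. The sum stands at 763.2 TPM at 0 h and between 145.2 and 165.6 TPM under LatB, where the ID2 block takes up most of each bar.

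Of the feedback genes, the inhibitory SMADs SMAD6 and SMAD7 fell at every time, and BAMBI fell at 24 h. SMAD7 (chr18:48919853-48950965, minus strand), which blocks the receptors of BMP and TGF-β, was at 15.6, 15.5 and 12.9 CPM at 0 h and at 15.7 and 16.4 CPM in the 24 h control. It was at 2.97, 3.18 and 3.03 CPM at 3 h, 4.57, 3.37 and 4.52 CPM at 6 h, 3.76 and 4.74 CPM at 12 h, and 5.49, 5.22 and 4.26 CPM at 24 h. Every LatB library was below every control, and the 3 h libraries were the lowest. The log2 fold changes were -2.26 (adjusted p = 2.12e-07), -1.82 (adjusted p = 6.21e-07), -1.78 (adjusted p = 4.03e-06) and -1.69 (adjusted p = 3.72e-06) at 3, 6, 12 and 24 h. LatB values rest on 86 to 170 reads per library. At 0 h SMAD7-202, annotated as a retained intron, held 53.2% of the TPM of the gene and the coding SMAD7-201 36.8%, and at 3 h they held 51.0% and 36.3%.

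SMAD6 (chr15:66702236-66782849, plus strand), the inhibitor more specific to BMP, was at 35.8, 29.8 and 28.9 CPM at 0 h and at 28.6 and 28.0 CPM in the 24 h control. It was at 10.6, 11.5 and 14 CPM at 3 h, 17.1, 16.6 and 16.9 CPM at 6 h, 19.0 and 15.8 CPM at 12 h, and 19.5, 18.0 and 18.6 CPM at 24 h. All 3 libraries of 3 h were below all later LatB libraries, and those were below all controls. Its level was 38.3% of control at 3 h, 53.5% at 6 h, 55.2% at 12 h and 66.0% at 24 h. The log2 fold changes were -1.39 (adjusted p = 8.95e-07), -0.90 (adjusted p = 1.7e-05), -0.86 (adjusted p = 0.000113) and -0.60 (adjusted p = 0.000993).

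BAMBI (chr10:28677510-28682932, plus strand), a receptor-like protein without a kinase that takes part in receptor complexes in place of an active receptor, followed another course. It was at 62.3, 59.8 and 59.3 CPM at 0 h and at 60.5 and 68.6 CPM in the 24 h control. It was at 59.4, 57.7 and 49.3 CPM at 3 h, 77.5, 74.2 and 70.2 CPM at 6 h, 54.6 and 44.6 CPM at 12 h, and 40.5, 28.4 and 35.4 CPM at 24 h. The 6 h libraries were the highest of all 16 and the 24 h LatB libraries the lowest. Against control the log2 fold change was -0.12 at 3 h (adjusted p = 0.454), 0.29 at 6 h (adjusted p = 0.0513), -0.29 at 12 h (adjusted p = 0.0994) and -0.89 at 24 h (adjusted p = 0.00012), so the fall at 24 h alone passed the test. The 6 h value passed with DESeq2 and with only the compared groups fitted, and the 12 h value passed without the 12 h library of replicate 1 (-0.44, adjusted p = 0.04) and with the 24 h control as the reference (-0.38, adjusted p = 0.0489), and was -0.15 without replicate 2.

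**Figure D3:**
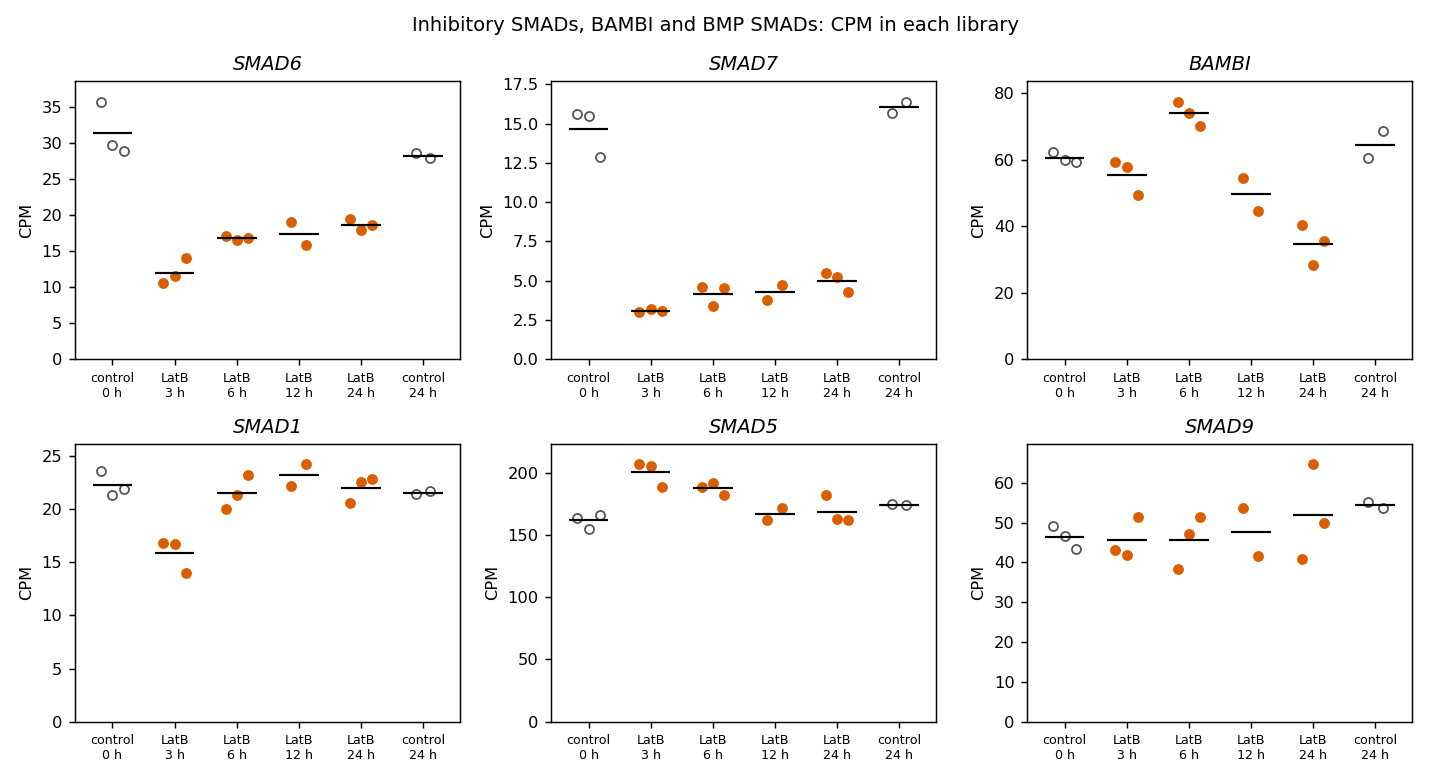
CPM of SMAD6, SMAD7, BAMBI, SMAD1, SMAD5 and SMAD9 (linear axes from 0) in each library, by group, drawn with the same symbols as the plot of the ID genes. SMAD6 and SMAD7 lie below the controls in every LatB library, BAMBI peaks at 6 h (70.2 to 77.5 CPM) and is lowest at 24 h (28.4 to 40.5 CPM), and SMAD9 overlaps between all LatB and control groups compared.

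The SMADs that carry the signal changed little. SMAD1 (chr4:145481194-145559176, plus strand) was at 23.6, 21.3 and 21.9 CPM at 0 h and at 16.8, 16.7 and 14 CPM after 3 h of LatB, and in all other libraries it was between 20.0 and 24.2 CPM. Only the 3 h group thus stood apart, with a log2 fold change of -0.49 (adjusted p = 0.000468). The values at 6, 12 and 24 h were -0.05, 0.06 and 0.03 (adjusted p of at least 0.637). The 3 h call was lost with an offset for transcript length (adjusted p = 0.0639).

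SMAD5 (chr5:136132845-136188747, plus strand), the member with the highest TPM among these SMADs, moved the other way early. It was at 163.8, 154.8 and 166.3 CPM at 0 h, at 206.6, 205.4 and 188.8 CPM at 3 h and at 188.8, 191.5 and 182.0 CPM at 6 h, with no overlap between control and LatB. The log2 fold changes were 0.31 at 3 h (adjusted p = 0.000693) and 0.21 at 6 h (adjusted p = 0.00593), and 0.04 and -0.05 at 12 and 24 h (adjusted p = 0.625 and 0.58). The 6 h call was lost with no scaling and with the 24 h control as the reference.

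SMAD9 (chr13:36844831-36920887, minus strand) lay between 38.3 and 64.6 CPM over all libraries. Its log2 fold changes were -0.03, -0.02, 0.03 and -0.07 at the 4 times, each smaller than its SE of 0.15 to 0.17. At 0 h 47.6% of its TPM was in SMAD9-203, annotated for nonsense-mediated decay, so the gene-level value is not that of the coding transcripts alone. The summed TPM of SMAD1, SMAD5 and SMAD9 was 81.1 ± 3.17 TPM at 0 h and 86.6 ± 1.14 TPM in the 24 h control, and ran from 82.9 to 90.0 TPM over the LatB groups.

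**Figure D4:**
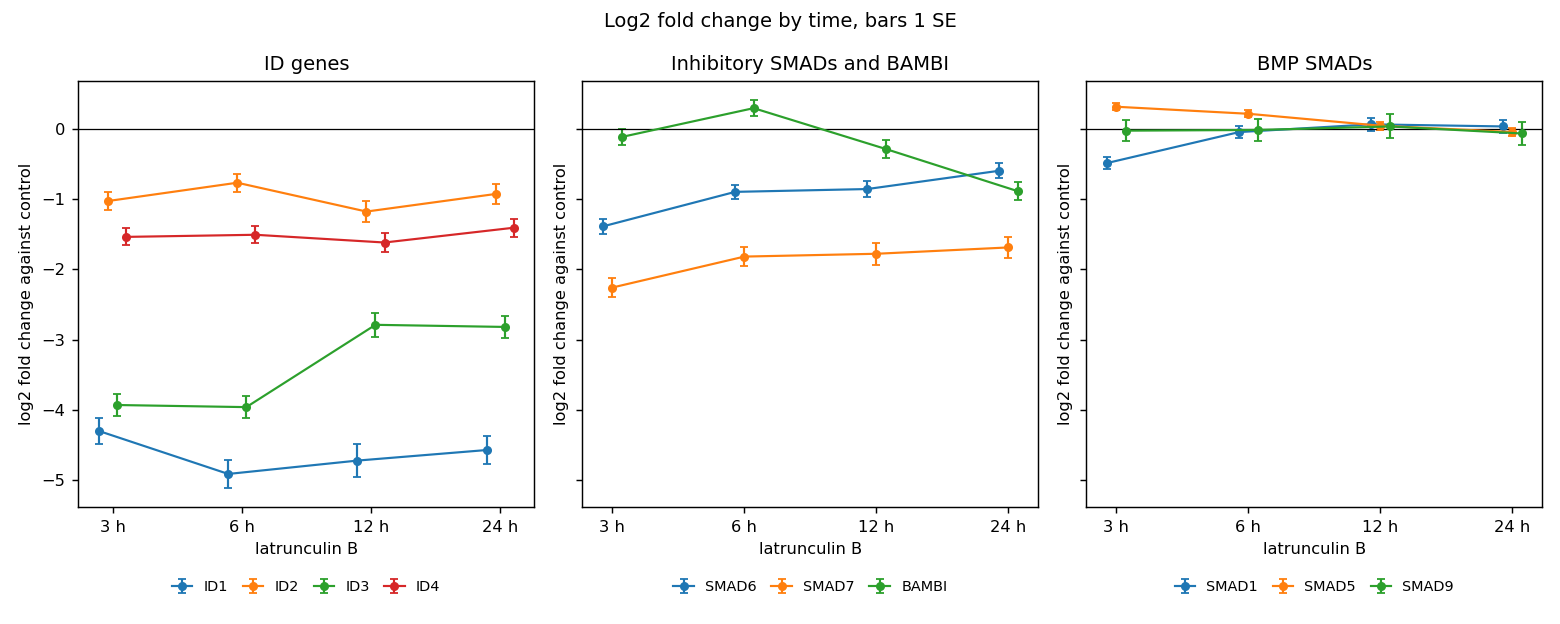
Log2 fold change of the 10 genes against the 0 h control (3, 6 and 12 h) or the 24 h control (24 h), with bars of 1 SE from the edgeR fit on a shared axis. ID1 and ID3 lie between -4.91 and -2.79, ID2, ID4, SMAD6 and SMAD7 between -2.26 and -0.60, and SMAD1, SMAD5 and SMAD9 within 0.5 of 0.

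To see whether the early fall held, LatB times were compared with each other, which uses no control library. Between 3 h and 6 h 22.2% of all genes were called with edgeR, and 4 of the 9 members other than ID1, all 4 higher at 6 h. SMAD6 was higher by 0.49 on the log2 scale (adjusted p = 0.00589), SMAD1 by 0.44 (adjusted p = 0.00205), BAMBI by 0.42 (adjusted p = 0.0186) and SMAD7 by 0.44 (adjusted p = 0.0461). The SMAD1 call was lost under 3 of 17 alternatives (a length offset and both limma fits), the SMAD7 call under 13 and the BAMBI call under 5, among them leaving out LatB 3 h replicate 3 or LatB 6 h replicate 1 or 2. ID2, ID3 and ID4 were not called, with log2 differences of 0.26, -0.03 and 0.04. ID1, chosen for its lasting fall, is given with no test and was at -0.61 (SE 0.21).

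Between 6 h and 24 h of LatB 37.9% of all genes were called, and 3 of the 9 members other than ID1. ID3 was higher at 24 h by 0.86 (SE 0.16, adjusted p = 0.000785), from 12.6 to 22.8 CPM. BAMBI was lower by 1.09 (log2 fold change -1.09, SE 0.12, adjusted p = 1.15e-05). SMAD5 was lower by 0.15 (log2 fold change -0.15, adjusted p = 0.0407), a call lost under 12 of 17 alternatives. ID1 differed by 0.16 (SE 0.22), again with no test, and the difference in course between ID1 and ID3 was not itself tested.

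The effect at 24 h, against its own control, was also set against the effect at 3 h. The difference passed the test for 27.9% of all genes and for 5 of the 9 members other than ID1. It was 1.10 for ID3 (adjusted p = 0.00225), 0.79 for SMAD6 (adjusted p = 0.00237) and 0.52 for SMAD1 (adjusted p = 0.00639), that is a smaller fall at 24 h, or none, and it was -0.35 for SMAD5 (adjusted p = 0.00555) and -0.77 for BAMBI (adjusted p = 0.0046). It was 0.57 for SMAD7 (adjusted p = 0.0528), which passed under 6 of 22 alternatives, DESeq2 among them, and 0.11 for ID2, 0.13 for ID4 and -0.04 for SMAD9 (adjusted p of at least 0.624). With no scaling between libraries the median of all genes moved by 0.135 for 24 h against 6 h of LatB and by 0.102 for the difference of effects, and by less than 0.1 in the other comparisons. The share of calls that were higher then went from 53.3% to 36.1% at 3 h, 52.8% to 37.7% at 6 h, 50.1% to 73.8% between 6 h and 24 h, and 52.1% to 69% for the difference of effects.

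Without the drug the members moved little over the day. Between the 24 h and 0 h controls edgeR called 0.251% of all genes and 0 of the 10 members. The unadjusted p was under 0.05 for 1 member, ID4 (log2 fold change -0.38, adjusted p = 0.336), and DESeq2 and limma called 0 members as well. The 24 h libraries of ID4 lay below all its 0 h libraries, and the 2 control groups did not overlap for SMAD5, SMAD6, SMAD7 and SMAD9 either (adjusted p of at least 0.722 in edgeR). The share of all genes without such overlap was not counted, so nothing is read from it about the members. ID4 passed when only the controls were fitted (adjusted p = 0.0339). The other 9 differed by between -0.28 (ID3) and 0.23 (SMAD9).

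The rest of the pathway was read from lists of its known parts, which were also made with earlier results of these data known. Of 10 BMP ligands tested, 2 were called higher and 2 lower at 3 h, 2 and 3 at 6 h, 5 and 2 at 12 h, and 2 and 2 at 24 h. Of all genes, 16.8%, 22.9%, 19.1% and 21.9% were called higher and 14.7%, 20.4%, 16.8% and 18.8% lower at these times. Without LatB 12 h replicate 2 the 12 h count was 3 higher and 2 lower, with GDF6 (2.01 with it, -0.15 without) and BMP5 (1.03 and 0.50) no longer called. Without LatB 24 h replicate 1 the 24 h count was 2 and 3, with GDF6 called lower (-2.16, adjusted p = 0.0441). BMP2, itself a ligand for the ID genes' pathway and the called ligand that fell most at each time with all libraries, went from 213.0 ± 0.799 CPM at 0 h to 92.0 ± 2.24 CPM at 3 h (log2 fold change -1.21, adjusted p = 0.000301), 70.6 CPM at 6 h (-1.59) and 64.7 CPM at 12 h (-1.72), and was at 87.4 against 221.7 CPM at 24 h (-1.34, adjusted p = 0.000225). BMP3, a ligand that opposes other BMPs, rose from 0.812 CPM at 0 h to 6.87 CPM at 6 h (3.07, adjusted p = 2.59e-07) and 11.9 CPM at 12 h (3.87, adjusted p = 1.26e-07), and was at 13.5 against 1.66 CPM at 24 h (3.02). GDF7, another ligand, was lower at 3 h (-0.94, adjusted p = 0.0114).

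Of 17 extracellular antagonists and modulators tested, 2 were called higher and 1 lower at 3 h, 4 and 4 at 6 h, 2 and 6 at 12 h (1 and 5 without LatB 12 h replicate 2), and 1 and 5 at 24 h (0 and 5 without LatB 24 h replicate 1). Among all genes tested, 16.8%, 22.9%, 19.1% and 21.9% were called higher and 14.7%, 20.4%, 16.8% and 18.8% lower at these times. FST, follistatin, which binds activins and some BMPs, rose from 6.06 ± 0.246 CPM at 0 h to 74.4 ± 32.8 CPM at 3 h (3.62, adjusted p = 2.93e-06). At 6 h it was at 90.6 ± 22.3 CPM (3.90, adjusted p = 1.03e-06), then at 27.8 CPM at 12 h and 11.7 CPM at 24 h. Its 24 h call against the 24 h control (0.98, adjusted p = 0.0473) was lost without LatB 24 h replicate 1 (0.73, adjusted p = 0.153). NOG, noggin, which binds BMPs and is itself known as a BMP target, fell from 8.25 to 3.82 CPM at 3 h (-1.11, adjusted p = 0.00247) and from 5.09 to 0.473 CPM at 24 h (-3.42, adjusted p = 3.13e-06). Its 24 h LatB mean (0.473 ± 0.155 CPM) is a low level that rests on few reads. CER1 and CRIM1, both BMP-binding proteins, were lower at 24 h (-1.63, adjusted p = 0.0164, and -1.61, adjusted p = 0.000123). Without LatB 12 h replicate 2, CER1 was also lower at 12 h (-1.66, adjusted p = 0.0182, against -0.22, adjusted p = 0.759, with it). The antagonists thus moved in both directions, FST upward early and NOG downward at 3, 12 (-1.78) and 24 h.

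Of 11 receptors and co-receptors tested, 4, 6, 4 and 1 were called higher and 0, 0, 0 and 1 lower at 3, 6, 12 and 24 h. The shares of all genes at these times were 16.8%, 22.9%, 19.1% and 21.9% called higher and 14.7%, 20.4%, 16.8% and 18.8% lower. Of 16 other SMADs and intracellular SMAD regulators, 9 were called higher and 1 lower at 3 h, 8 and 3 at 6 h, 4 and 7 at 12 h, and 4 and 6 at 24 h. Without LatB 12 h replicate 2 the second list had 5 higher and 6 lower at 12 h, and without LatB 24 h replicate 1 it had 3 and 6 at 24 h.

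Of 10 other genes known to respond to BMP, 2 were called higher and 2 lower at 3 h, 2 and 3 at 6 h, 1 and 1 at 12 h (0 and 1 without LatB 12 h replicate 2), and 1 and 1 at 24 h (1 and 2 without LatB 24 h replicate 1), beside 31.6%, 43.3%, 35.8% and 40.8% of all genes called in either direction. The list had medians of -0.49, -0.44, 0.27 and -0.18. UNC5B, a netrin receptor, fell from 99.5 ± 13.6 CPM at 0 h to 33.8 ± 3.46 CPM at 6 h (-1.56, adjusted p = 4.86e-06) and 31.4 CPM at 12 h (-1.66), and was at 26.1 against 76.2 CPM at 24 h (-1.55). HEY1, a bHLH repressor that Notch also induces, fell at 6 h (-0.82, adjusted p = 0.00257) and was not called at 12 and 24 h. ATOH8, a bHLH factor, was higher at 3 h (1.56, adjusted p = 0.00399), from 1.06 to 3.14 CPM. It was not called at 12 h (0.48, adjusted p = 0.376) and was higher at 24 h (1.92, adjusted p = 0.00309).

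The partners of the ID proteins were measured beside them. Of 11 E proteins and other bHLH genes tested, 2, 5, 7 and 8 were called higher at 3, 6, 12 and 24 h and the rest were not called, where 16.8%, 22.9%, 19.1% and 21.9% of all genes were called higher. Without LatB 12 h replicate 2 the 12 h count was 4, and without LatB 24 h replicate 1 the 24 h count was 6. TCF3 had log2 fold changes of 0.26, 0.54, 0.28 and 0.51, of which 6 h (adjusted p = 0.000471) and 24 h (adjusted p = 0.00191) passed. TCF4 rose at 12 h (0.71, adjusted p = 0.00165) and 24 h (0.41, adjusted p = 0.0324), as did TCF12 by less (0.20, adjusted p = 0.0255, and 0.18, adjusted p = 0.0328). The TCF12 call at 12 h was lost without LatB 12 h replicate 2 (0.05, adjusted p = 0.458), and the 24 h calls of TCF4 and TCF12 were lost without LatB 24 h replicate 1 (adjusted p = 0.0561 and 0.066). The summed TPM of the 3 E proteins was 152.5 ± 13.1 TPM at 0 h, 150.5 ± 5.48 TPM at 3 h and 188.3 ± 22.0 TPM at 24 h of LatB, against 151.9 ± 12.5 TPM in the 24 h control, and their ranges in LatB and control libraries did not overlap at 24 h. At 0 h the summed ID level was thus above the summed E protein level (763.2 against 152.5 TPM). Under LatB the mean ID sum was below the mean E protein sum at each time, from 3 h (145.2 against 150.5 TPM) to 24 h (160.5 against 188.3 TPM). The library ranges of the sums overlapped at each of these times, at 24 h with 154.3 to 165.1 against 163.3 to 204.5 TPM. Both sums are RNA levels and do not give protein amounts.

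NEUROG3, the endocrine factor, was at 0.8 ± 0.49 CPM at 0 h and 1.09 ± 0.351 CPM at 3 h (log2 fold change 0.46, adjusted p = 0.52), then at 3.64 ± 0.517 CPM at 6 h (2.21, adjusted p = 0.00101) and 11.2 ± 3.71 CPM at 12 h (3.84, adjusted p = 1.95e-05). At 24 h it was at 44.9 ± 17.6 CPM against 2.21 ± 0.199 CPM in the control (4.34, adjusted p = 7.66e-06). Between the 0 h and 24 h controls (0.8 and 2.21 CPM) NEUROG3 was not called, but its 3, 6 and 12 h values mix drug with time in culture. Its downstream factor NEUROD1 had log2 fold changes of 0.60, 1.41, 2.03 and 2.77, of which 6 h (adjusted p = 0.0269), 12 h (adjusted p = 0.00633) and 24 h (adjusted p = 0.000649) passed, the 12 h call being lost without LatB 12 h replicate 2 (1.39, adjusted p = 0.104). The ID genes were thus at their low level at 3 h, when NEUROG3 and NEUROD1 were not called. ATOH1, a bHLH factor of secretory lineages, was called higher at 3 h, at 4.88 against 0.742 CPM (2.72, adjusted p = 0.00751), and at 6 h, at 6.2 CPM (3.07, adjusted p = 0.0025). It was also called higher at 12 h (2.05, adjusted p = 0.0441), and its log2 fold change there was 2.91 without LatB 12 h replicate 2.

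**Figure D5:**
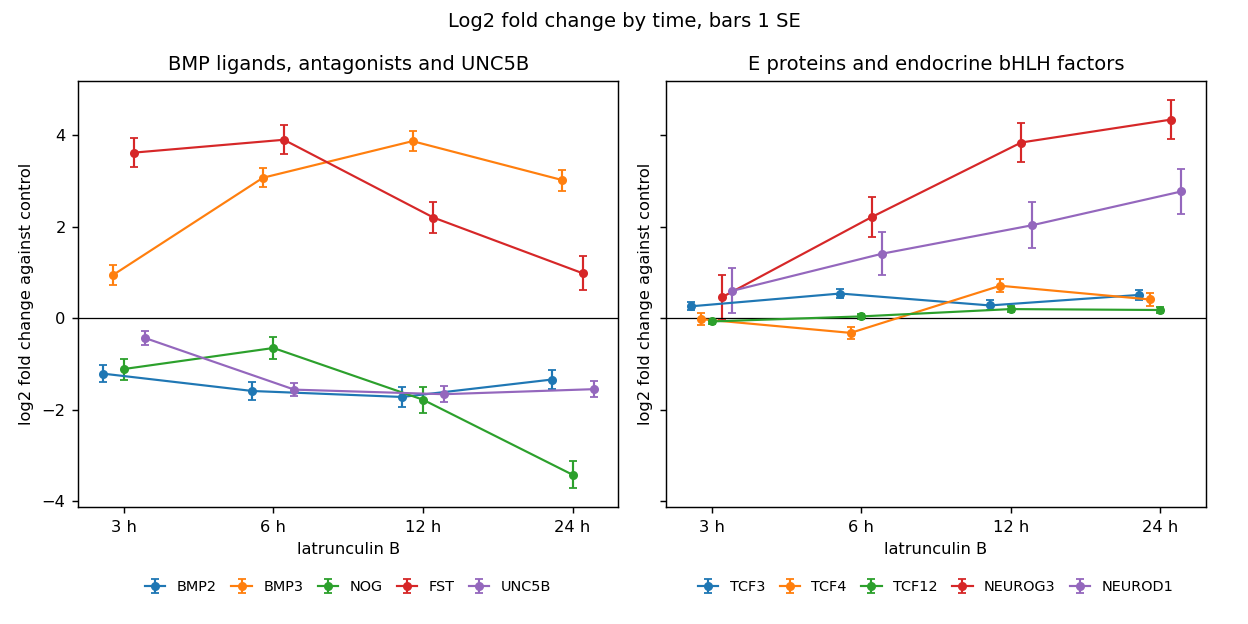
Log2 fold change against control, with bars of 1 SE, of 2 BMP ligands (BMP2, BMP3), 2 antagonists (NOG, FST) and UNC5B on the left, and of the E proteins with NEUROG3 and NEUROD1 on the right. FST is highest at 6 h (3.90) and 0.98 at 24 h, NOG reaches -3.42 at 24 h, and NEUROG3 climbs from 0.46 at 3 h to 4.34 at 24 h.

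Likeness to each ID gene was measured over the 5 groups other than the 0 h control, as the mean absolute difference in log2 CPM relative to 0 h, among 10601 genes with a mean log2 CPM of at least 3. Nearest to ID1 were ANKRD1 (0.62), CCN2 (0.73) and CCN1 (0.96), known as targets of the coactivator YAP. Whether they share a cause with ID1 was not tested. ANKRD1 was at -3.54, -4.59, -5.63 and -4.06 at 3, 6, 12 and 24 h of LatB relative to 0 h, where ID1 was at -4.28, -4.88, -4.70 and -4.75, and at 24 h CCN1 was at -1.82. Nearest to ID3 were TXNIP (0.64), CCN1 (0.64) and CCL2 (0.95), and TXNIP was at -4.12 at 3 h and -1.11 at 24 h. For the shallower ID genes the nearest were closer. They were NUAK1 (0.12), SPIN4 (0.16) and VMP1 (0.16) for ID2, and UNC5B (0.27), ST3GAL5 (0.28) and BMP2 (0.28) for ID4.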

How the data were processed

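RNA was sequenced from 16 libraries in 6 groups, assigned by their labels. Per the labels (the submitters' processing notes), the authors used Salmon 1.3.0, DESeq2 and hg38. The study's methods describe STAR and gene counts instead, and other settings are not given in the sources used here. The deposited estimated counts and TPM of 177456 transcripts per library were summed per gene through GENCODE release 44 (165533 matched, and 2.92% to 3.17% of reads were left out). Deposited comparisons by the authors (fold changes and p-values) and their 16 per-sample columns were not used.

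Counts rounded to whole numbers entered edgeR 4.0.16 under R 4.3.3 (quasi-likelihood, two-sided, TMM, filterByExpr, all 6 groups in one fit, checked on simulated counts). P-values were adjusted over 16705 genes by Benjamini-Hochberg, and a gene was called under 0.05. The 23609727 to 33515398 reads per library set the precision.

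Members and lists were chosen with earlier results of these data known. Named beyond the members were TCF3, TCF4, TCF12, NEUROG3, NEUROD1, the 3 largest called rises and falls of the pathway lists per drug comparison (no overlap of groups, mean log2 CPM of at least 0) and the 3 genes most like each ID gene. One gene that this rule names is not reported here. Alternatives used DESeq2 1.42.0, limma 3.58.1 with log2(TPM + 1) or log2(TPM + 0.1), other scalings, filters and references, and fits without each library.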

Additional observations from a re-analysis of the deposited data

Results flagged for a closer look

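For 5 genes the effect of LatB at 24 h, against the 24 h control, differed from the effect at 3 h, against the 0 h control, in the edgeR test of that difference. On the log2 scale the difference was 1.1 for ID3 (SE 0.22, adjusted p = 0.00225), whose fall was smaller at 24 h. It was 0.79 for SMAD6 (SE 0.16, adjusted p = 0.00237), whose fall was also smaller. It was 0.52 for SMAD1 (SE 0.12, adjusted p = 0.00639), which was lower at 3 h and not called at 24 h. It was -0.35 for SMAD5 (SE 0.08, adjusted p = 0.00555), which was higher at 3 h and not called at 24 h. It was -0.77 for BAMBI (SE 0.17, adjusted p = 0.0046), which was not called at 3 h and lower at 24 h. The 2 effects rest on different controls. No group had the 4 libraries needed to test, for these genes, whether a single library lay far from the rest. The 2 libraries that stood apart were picked out by their marker sums.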

How the results depend on the processing

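In each drug comparison with a control, the calls of ID2, ID3, ID4, SMAD6 and SMAD7 kept their direction and their side of the threshold under every alternative run, and ID1 kept its direction. Among the members, reads limit ID1 and SMAD7 most, with as few as 80 and 86 under LatB. Some other named genes were at lower levels still. They include NOG at 24 h of LatB (0.473 CPM) and NEUROG3, BMP3 and ATOH1 at 0 h (0.8, 0.812 and 0.742 CPM). Asking for a log2 change of at least 1 as well left 614, 1033, 1266 and 1213 called genes at 3, 6, 12 and 24 h, 7 between controls, 298 between 3 h and 6 h, 865 between 6 h and 24 h, and 960 for the difference of effects. At 12 h 2828 genes were called with only the compared groups fitted and 3981 with limma on log2(TPM + 0.1). With a length offset, limma on log2(TPM + 1) and limma on log2(TPM + 0.1), 2029, 1751 and 1788 genes were called between 3 h and 6 h, and 2977, 2941 and 2940 for the difference of effects. Between controls, in place of 42 genes, 267 were called with DESeq2, 8 with RLE size factors, 7 with no scaling, 91 with no filter, 87 with a mean of at least 50 counts, 218 with only the compared groups, 8 with a length offset, 6 with the same transcript version, 2 and 7 with limma, and 6 with the replicate block. Leaving out each library in turn gave 4034 to 6424 called genes at 24 h and 3012 to 4535 for the difference of effects, both lowest without control 24 h replicate 1, and 2 to 9 between controls. Lists of other pathway genes were refitted without LatB 12 h replicate 2 and LatB 24 h replicate 1, a choice made after seeing the data. The causes were not tested.

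Same-numbered libraries did not deviate together (correlations of -0.241 to 0.116 over 36 pairs, median -0.023, against a median of 0.012 for other numbers), so the numbers were not taken to pair samples. With the replicate block 4853, 6863, 5364 and 6005 genes were called at 3, 6, 12 and 24 h. BAMBI was then called higher at 6 h (log2 fold change 0.29, adjusted p = 0.0458 in edgeR) and SMAD7 was lost between 3 h and 6 h. No other call of a member changed with it.

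Signs turned in small values that were not called. With the other control as the reference SMAD5 was -0.065 and SMAD9 -0.1947 at 12 h, and SMAD1 was -0.0171, SMAD5 0.0622 and SMAD9 0.162 at 24 h. SMAD5 at 24 h was 0.0505 with a length offset and 0.0315 and 0.0319 with limma. SMAD7 between controls was -0.0249 with a length offset and -0.0321 with the same transcript version. Between 3 h and 6 h ID4 was -0.0138 and -0.0153 with limma, and SMAD9 was -0.0119 with no scaling, -0.0066 with a mean of at least 50 counts and 0 with the replicate block. The difference of effects for SMAD9 was 0.0622 with no scaling, 0.0126 with a length offset, and 0.0533 and 0.0571 with limma. Leaving out each library in turn, SMAD9 ran from -0.1432 to 0.0154 at 3 h, -0.1368 to 0.0685 at 6 h, -0.1615 to 0.2095 at 12 h, -0.2567 to 0.0771 at 24 h, -0.0897 to 0.1157 between 3 h and 6 h, -0.0029 to 0.3307 between 6 h and 24 h, and -0.2293 to 0.1041 for the difference of effects. SMAD1 ran from -0.0028 to 0.1181 at 12 h and -0.0157 to 0.091 between 6 h and 24 h, and SMAD5 from -0.0032 to 0.0814 at 12 h. Between 3 h and 6 h ID3 ran from -0.1105 to 0.1215 and ID4 from -0.0676 to 0.1403, and ID1 from -0.0487 to 0.3784 between 6 h and 24 h. SMAD9 had no value with the same transcript version.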
